A study of Mus musculus with 12 samples.

Results

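Cytosolic ribosomal protein genes encode the protein part of the ribosome that works in the cytosol. Members were protein-coding rows of the count table, with no pseudogenes, whose symbol is Rpl or Rps followed by a number, or is Rplp0, Rplp1, Rplp2 or Rpsa, and the S6 kinase genes (Rps6k) were left out. By this rule 86 of 50563 gene rows were members, and the rule uses symbols and gene type only. Of the members, 49 have large subunit symbols, 34 have small subunit symbols and 3 form the stalk. The rule also takes in Rps19bp1, a binding partner of the protein Rps19, and Rpl7l1, a relative of Rpl7, which are not core ribosomal proteins. It leaves out Fau and Rack1, which contribute ribosomal proteins under other names.

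The counts come from RNA-Seq of brain cortex of 12 E4FAD mice, with 1 library per mouse. All mice carried human APOE4 in place of mouse Apoe (APOE4+/+) and 1 copy of the 5xFAD transgenes (5FAD-/+), which overproduce human amyloid beta, so there was no mouse without amyloid pathology. The CTRL group (7 mice, 2 at 12 month and 5 at 14 month of age) received vehicle by gavage, and the DPAn-6 group (5 mice, 2 at 12 month and 3 at 14 month) received the omega-6 docosapentaenoic acid as ethyl ester at 700 mg/kg daily for 3 weeks, with the same antioxidants in both. The study asked whether DPAn-6 alters neuroinflammation. For the ribosomal protein genes, the comparison asks whether mRNAs of the translation machinery differed between the groups, and whether they differed from other short mRNAs.

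Each cytosolic ribosome holds a small subunit, which reads the mRNA, and a large subunit, which joins amino acids. Cells make the proteins of both subunits in equal number, because nearly every protein is present once per ribosome, while the stalk proteins Rplp1 and Rplp2 are present in several copies. Mammalian ribosomal protein mRNAs are short, begin with a run of pyrimidines (the TOP motif) through which mTORC1 and Larp1 set their translation, and have many processed pseudogenes, copies of the mRNA pasted back into the genome. In neurons they are found in cell bodies and also in dendrites and axons.

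The start regions are shown first because the pyrimidine run is the textbook feature of these mRNAs and was not used to choose members. The 4 genes printed all have a pyrimidine run near the annotated start, which not every member has. RefSeq start sites (GRCm38.p6) were matched for 66 of the 86 members. Printed are 30 bases before and 20 bases from the annotated start, with the longest run of C and T in capitals, for Rpl27a (chr7:109519165-109519214, plus strand), Rpl4 (chr9:64173357-64173406, plus strand), Rplp2 (chr7:141447621-141447670, plus strand) and Rps6 (chr4:86857348-86857397, minus strand).
Rpl27a: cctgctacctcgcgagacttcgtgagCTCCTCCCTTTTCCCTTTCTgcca
Rpl4: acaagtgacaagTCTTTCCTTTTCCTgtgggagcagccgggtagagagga
Rplp2: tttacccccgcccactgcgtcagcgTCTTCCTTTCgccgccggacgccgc
Rps6: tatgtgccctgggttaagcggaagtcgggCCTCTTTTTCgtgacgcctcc
The runs hold 20, 14, 10 and 10 bases. That of Rpl4 ends before the annotated start, while those of Rpl27a, Rplp2 and Rps6 span it. A run anywhere in the printed region was counted, so it need not lie at the first base of the mRNA. In this 50-base region, 32 of 66 members (48.5%) had a run of at least 8 bases of C and T on the transcribed strand, against 22.9% of 27025 gene symbols with a RefSeq start. On the opposite strand, read as A and G on the transcribed strand, such a run occurred in 10.6% of members and in 24.6% of all symbols. The 30 tested members with a C and T run had a median log2 fold change of 0.06 and the 28 tested members without one a median of 0.05, so the 2 classes of members had nearly the same median.

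The second set of sequences shows why counts of these genes need care. The authors counted reads per gene with STAR's GeneCounts, which counts a read only where it maps to a single place. For each member, the share of 50-base windows of its principal transcript that also occur, base for base, in the transcript of another annotated gene was taken as shared sequence (GENCODE M21, GRCm38). Windows of 50 coding bases nearest the middle of the coding sequence, inside 1 exon, are printed for the 3 members with the highest level per kilobase, Rplp1 (chr9:61913469-61913518, minus strand), Rpl4 (chr9:64176995-64177044, plus strand) and Rpl8 (chr15:76904898-76904947, plus strand), and the 3 tested members with the lowest, Rpl19 (chr11:98029436-98029485, plus strand), Rpl23a (chr11:78181543-78181592, minus strand) and Rpsa (chr9:120130286-120130335, plus strand).
Rplp1: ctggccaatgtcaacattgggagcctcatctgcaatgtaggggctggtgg
Rpl4: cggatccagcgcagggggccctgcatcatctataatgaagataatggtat
Rpl8: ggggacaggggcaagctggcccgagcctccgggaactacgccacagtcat
Rpl19: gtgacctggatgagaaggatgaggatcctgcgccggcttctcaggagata
Rpl23a: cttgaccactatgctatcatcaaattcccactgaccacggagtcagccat
Rpsa: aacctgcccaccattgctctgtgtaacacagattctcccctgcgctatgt
The windows of Rpl4 and Rpl8 occurred in 0 other annotated genes. The window of Rplp1 occurred in 3 other genes, that of Rpl23a in 2, that of Rpsa in 5 and that of Rpl19 in 11.

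Shared sequence was common among the members. The median share was 54.5% of windows, from 0% to 98.6%, and 51 of 86 members (59.3%) had over 50% of their windows in another gene. Among 538 other tested protein-coding genes with a longest transcript of at most 1000 bases, which are called other short genes here, the median share was 0% and 44 (8.18%) had over 50%.

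Ribosomal protein genes took few of the counts. All 86 members together held 0.198% to 0.297% of the counts in CTRL mice (median 0.257%) and 0.256% to 0.290% in DPAn-6 mice (median 0.266%), out of 15208803 to 26520251 counts per mouse. CTRL replicate 3 had the lowest share, and the other mice of both groups overlapped. The 277 annotated ribosomal protein pseudogene rows held 314 to 630 counts per mouse. On average over mice, 35 members had under 100 counts and 14 had over 1000, and 42.8% of all member counts lay on 5 genes, with 15.3% on Rpl4 alone. Counting error is small for the second class, while the first class rests on few reads. The spread between mice still differed within the second class, with an SD of log2 CPM in CTRL mice from 0.09 (Rpl4) to 0.64 (Rps14).

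Levels per kilobase of the principal transcript, as the mean over the 12 mice, differed by 8.63 on the log2 scale between the highest and the lowest tested member. Rplp1, a stalk protein, was highest with 8.41 log2 CPM per kb, followed by Rpl4, which lines the exit tunnel of the large subunit, with 8.04 and Rpl8, a core protein of the large subunit, with 7.99. These 3 means lay within 0.42 of each other, and their order was not tested. Rpl19, also of the large subunit, was lowest with −0.22, followed by Rpl23a with 0.34 and Rpsa, a small subunit protein also known as the laminin receptor, with 0.44. These 3 rest on 3 to 21, 8 to 22 and 23 to 65 counts per mouse, and their order was not tested either.

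The median level was lowest among the members with the most shared sequence. The 25 members with over 75% of windows shared had a median of 2.75 log2 CPM per kb, the 48 members with 25% to 75% a median of 4.35, and the 13 members with under 25%, of which 10 were tested, a median of 3.80. The untested ones of this last class, Rpl10l (−5.21), Rpl39l (−3.00) and Rpl3l (−2.61), had almost no counts and lower its median. Its 10 tested members lay between 2.49 (Rps20) and 8.04 (Rpl4). In the other classes 23 of 25 and 44 of 48 members were tested. Across the 86 genes, Spearman's rho between level and shared sequence was −0.29 with 50-base windows and −0.42 with 100-base windows. Genes are not independent replicates, and all points share the same 12 libraries. Over the 82 members with at least 50 unshared windows, the SD of the levels was 2.77 per kilobase and 2.72 per unshared kilobase. Both SDs include Rpl10l, Rpl39l and Rpl3l, so they do not show what the scaling does for the other members. The part of read mapping in the unequal levels was not tested.

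**Figure D1:**
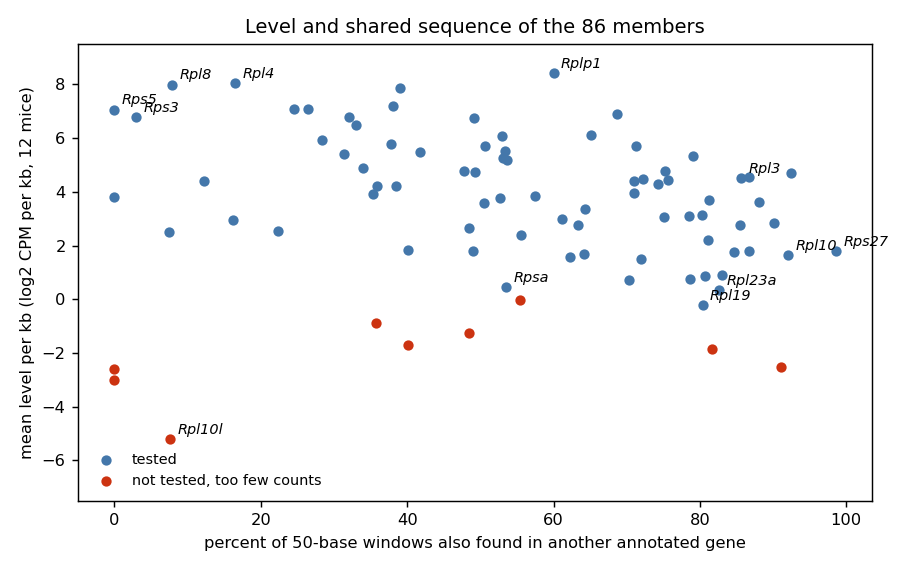
Mean level of each of the 86 members in log2 CPM per kb over 12 mice (vertical axis) against the percent of its 50-base windows found in another annotated gene (horizontal axis). Blue points are the 77 tested members and red points the 9 with too few counts. The highest levels are those of Rplp1 (8.41), Rpl4 (8.04) and Rpl8 (7.99), and beyond 75% shared the highest level is 5.32.

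Of the 86 members, 77 passed the filter on low counts and 9 did not. Rpl10l, a copy of Rpl10 used in testis, had 0 counts in all 12 mice, which allows up to 0.197 CPM in the smallest library, for counting error only. Rpl39l and Rps27rt had 0 to 3 counts per mouse, Rpl3l, the muscle relative of Rpl3, had 0 to 10, and Rpl24 and Rps29 had 1 to 6. Rpl38 had 3 to 10 counts, Rps16 had 3 to 12 and Rps23 had 2 to 18. Rpl24, Rpl38, Rps16, Rps23 and Rps29 are core ribosomal proteins, and the counts do not measure the amount of protein.

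One library stood apart. In log2 CPM taken relative to each gene's mean over the 12 mice, the median of the 77 tested members was −0.60 in CTRL replicate 3 and lay between −0.09 and 0.22 in the other 11 mice. CTRL replicate 3 was the lowest of the 12 mice for 49 of 77 members, and the highest for 7 of 77. The other short genes did the same, with a median of −0.48 in CTRL replicate 3 and −0.04 to 0.16 in the other mice. Over all protein-coding genes that are not members, the median in this library rose with transcript length, from −0.49 up to 750 bases to 0.25 above 8000 bases. The large subunit genes, here together with the stalk genes (−0.57), and the small subunit genes (−0.62) were low alike in this mouse. Among the other lists, oxidative phosphorylation genes had a median of −0.70 there, proteasome genes −0.40, mitochondrial ribosome genes −0.37, translation factors −0.11 and ribosome assembly genes −0.01.

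The fall in CTRL replicate 3 was uneven among members. Rplp2 had 3.16 log2 CPM there and Rps6 −0.08, while Rpl4 had 8.77 and Rps26, a small subunit protein near the mRNA exit, had 6.12, both the highest of the 12 mice. Rpl23 with 5.46 and Rpl28 with 3.91 were also highest there, and were picked out after their values were seen. The 2 CTRL mice at 12 month of age, CTRL replicates 1 and 7, had the highest medians of the CTRL group with 0.16 and 0.22, while the 2 DPAn-6 mice at that age had −0.05 and 0.02. With 2 mice per group at that age, no test of age within a group was run.

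**Figure D2:**
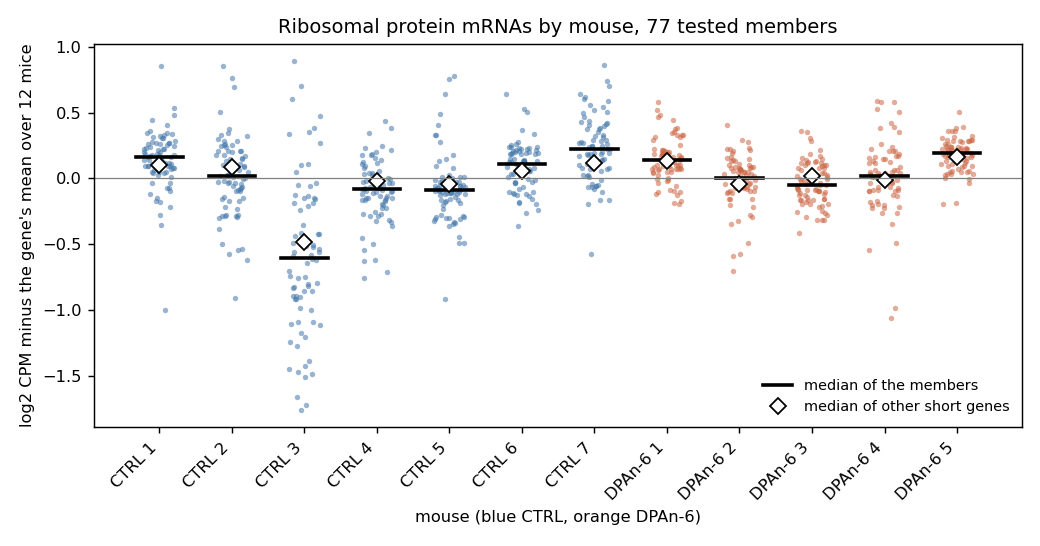
Log2 CPM of the 77 tested members minus each gene's mean over 12 mice (vertical axis) in each mouse (horizontal axis), with 1 point per gene, the median of the members as a bar and the median of the other short genes as a diamond. CTRL replicate 3 has a median of −0.60 for the members and −0.48 for the other short genes, and no other mouse is below −0.09.

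No ribosomal protein gene was called between CTRL and DPAn-6. With edgeR's quasi-likelihood test and Benjamini-Hochberg adjustment over all 15688 genes tested, 0 of 77 members were higher in DPAn-6, where 0.408% of all genes tested were called higher, and 0 of 77 were lower, where 1.14% of all genes were called lower. At an unadjusted p below 0.05, 2 of 77 members passed (2.60%) in a table where 14.5% of genes did. Of the 538 other short genes, 47 (8.74%) passed, and after adjustment 2 were called higher and 3 lower. The groups did not overlap in 0 of 77 members, against 3.22% of all genes tested. Among the 538 other short genes they did not overlap in 4 that were higher and 1 that was lower in DPAn-6. Limma-voom called 0 members and DESeq2 called 1, Rpl27a, in a table where DESeq2 called 4.44% of genes in either direction. Without CTRL replicate 3, again 0 of 77 members were called, in a table where 2.12% of genes were called higher and 3.98% lower. In bulk tissue, fewer cells of a type and less RNA per cell cannot be told apart, here and in the values that follow.

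The fold changes of the members were small. Their median log2 fold change was 0.04, with quartiles of −0.04 and 0.13 and a range from −0.30 to 0.40, against a median of 0.04 and quartiles of −0.09 and 0.14 for the 538 other short genes and a median of −0.00 for all genes tested. Of the 77 members, 49 had a fold change above 0 with TMM scaling and 57 with library totals alone. The count was 35 of 77 without CTRL replicate 3, 28 of 77 with Ttr as covariate and 66 of 78 in 14-month mice only. The large subunit genes had a median of 0.03 (44 tested) and the small subunit genes 0.08 (30 tested). Without CTRL replicate 3 the median was −0.01 both for the members and for the other short genes. The median standard error of a member was 0.164 on the log2 scale, larger than that of all genes tested (0.122) and near that of other short genes (0.155), so shifts of the size of the median could not be seen in a single gene.

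Rpl27a, a protein of the large subunit (chr7:109519147-109522367), had the smallest p of all members. It lay at 4.01, 4.29 and 4.53 log2 CPM (lowest, median and highest) in CTRL mice and at 4.52, 4.64, 4.59, 4.58 and 4.78 in the 5 DPAn-6 mice. The DPAn-6 mice clustered at or above the top of the CTRL range, and the groups met at 4.52 to 4.53. The means were 4.28 ± 0.21 (SD, n = 7) and 4.62 ± 0.09 (SD, n = 5), with a two-sided exact permutation p of 0.00884 that is not adjusted for the number of members. Its log2 fold change in edgeR was 0.31 (standard error 0.10, adjusted p = 0.128), and DESeq2 gave the same 0.31 (adjusted p = 0.047). CTRL replicate 3 was the lowest mouse, and without it edgeR gave 0.28 (adjusted p = 0.0635). With the choroid plexus gene Ttr as covariate edgeR gave 0.14 (adjusted p = 1.0), but choroid plexus level went largely with group. Rpl7l1 was the other member past an unadjusted p of 0.05, with 4.68 ± 0.17 log2 CPM (SD, n = 7) for CTRL and 4.92 ± 0.08 (SD, n = 5) for DPAn-6 (log2 fold change 0.20, standard error 0.08, edgeR adjusted p = 0.264), and its values overlapped.

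The stalk proteins recruit the elongation factors to the ribosome. Rplp0, the anchor of the stalk (chr5:115559467-115563727), lay at 5.44, 5.97 and 6.12 log2 CPM (lowest, median, highest) in CTRL and at 6.07, 5.86, 5.82, 5.94 and 6.07 in DPAn-6 mice. Rplp1 (chr9:61913284-61914542) lay at 7.18, 7.38 and 7.66 in CTRL and at 7.48, 7.38, 7.25, 7.45 and 7.53 in DPAn-6 mice. For both genes every DPAn-6 value fell inside the CTRL range, and their log2 fold changes were −0.00 (standard error 0.10) and −0.02 (standard error 0.09). Rplp2 (chr7:141447370-141451585) lay at 3.16, 5.09 and 5.44 in CTRL and at 5.21, 4.97, 5.01, 4.66 and 5.16 in DPAn-6 mice. Its lowest value was that of CTRL replicate 3, and its fold change moved from 0.07 (standard error 0.25) to −0.09 without this mouse.

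Rpl5 and Rpl11 join the 5S ribosomal RNA in a particle that can also bind Mdm2, the inhibitor of p53. Rpl5 (chr5:107900502-107909005) lay at 3.16, 3.54 and 4.14 log2 CPM in CTRL and at 3.52, 3.93, 3.86, 4.06 and 3.71 in DPAn-6 mice. Rpl11 (chr4:136028265-136053428) lay at 0.49, 1.41 and 1.69 in CTRL and at 1.57, 1.47, 1.16, 1.38 and 1.41 in DPAn-6 mice, on 21 to 70 counts in each. Both overlapped between the groups, with log2 fold changes of 0.13 (standard error 0.16) and 0.08 (standard error 0.17) and edgeR adjusted p of 0.777 and 0.878. The fold changes were 0.22 and −0.01 without CTRL replicate 3.

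Among the other large subunit genes, Rpl4 (chr9:64173375-64178666) was measured most precisely, from 6234 to 11230 counts per mouse. It lay at 8.50, 8.66 and 8.77 log2 CPM in CTRL and at 8.73, 8.59, 8.61, 8.69 and 8.73 in DPAn-6 mice, so both groups covered the same narrow range. Its log2 fold change was −0.01 (standard error 0.06, edgeR adjusted p = 0.964). Rpl3, which sits close to the peptidyl transferase centre (chr15:80077791-80091868), lay at 4.83, 4.88 and 5.27 in CTRL and at 4.98, 4.82, 4.77, 4.95 and 4.97 in DPAn-6 mice, with CTRL replicate 3 at the top. Rpl8 (chr15:76904078-76906314) lay at 6.77, 7.83 and 8.03 in CTRL and at 7.94, 7.78, 7.75, 7.84 and 7.92 in DPAn-6 mice, with CTRL replicate 3 at the bottom. The log2 fold changes of these 2 genes were −0.09 (standard error 0.09) and 0.09 (standard error 0.15), and both were −0.02 without CTRL replicate 3. Rpl10, which is added late to the large subunit (chrX:74270812-74273135), had 1.31 ± 0.31 log2 CPM (SD, n = 7) for CTRL and 1.30 ± 0.27 (SD, n = 5) for DPAn-6, and 92.1% of its windows were shared.

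The largest rises among tested members were those of Rpl27 (0.40, standard error 0.22), Rpl27a, Rpl31 (0.27, standard error 0.14), Rpl34 (0.25, standard error 0.14) and Rpl15 (0.24, standard error 0.16), all of the large subunit and none past the adjusted threshold. Rpl27 had 11 to 67 counts per mouse, with −0.42, 0.86 and 1.22 log2 CPM in CTRL and 1.54, 1.25, 0.92, 1.22 and 1.35 in DPAn-6 mice. Its lowest value came from CTRL replicate 3, and without that mouse its log2 fold change was 0.28. The largest falls were those of Rps27l (−0.30, standard error 0.14), Rpsa (−0.27, standard error 0.18), Rps26 (−0.26, standard error 0.18), Rps27a, made as a fusion with ubiquitin (−0.25, standard error 0.26), and Rps27 (−0.23, standard error 0.21), all of the small subunit and none past the adjusted threshold. Rpl36 of the large subunit followed closely at −0.22. Without CTRL replicate 3 the 5 largest falls were those of Rps27a, Rps27l and Rpsa (−0.34 each), Rpl36 (−0.32) and Rpl19 (−0.31), so the list then held both subunits. Rps26 (chr10:128624534-128626747) lay at 4.89, 5.17 and 6.12 log2 CPM in CTRL and at 5.30, 4.94, 5.02, 5.10 and 5.26 in DPAn-6 mice. The value of 6.12 is that of CTRL replicate 3, and without it the log2 fold change of Rps26 was −0.07.

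**Figure D3:**
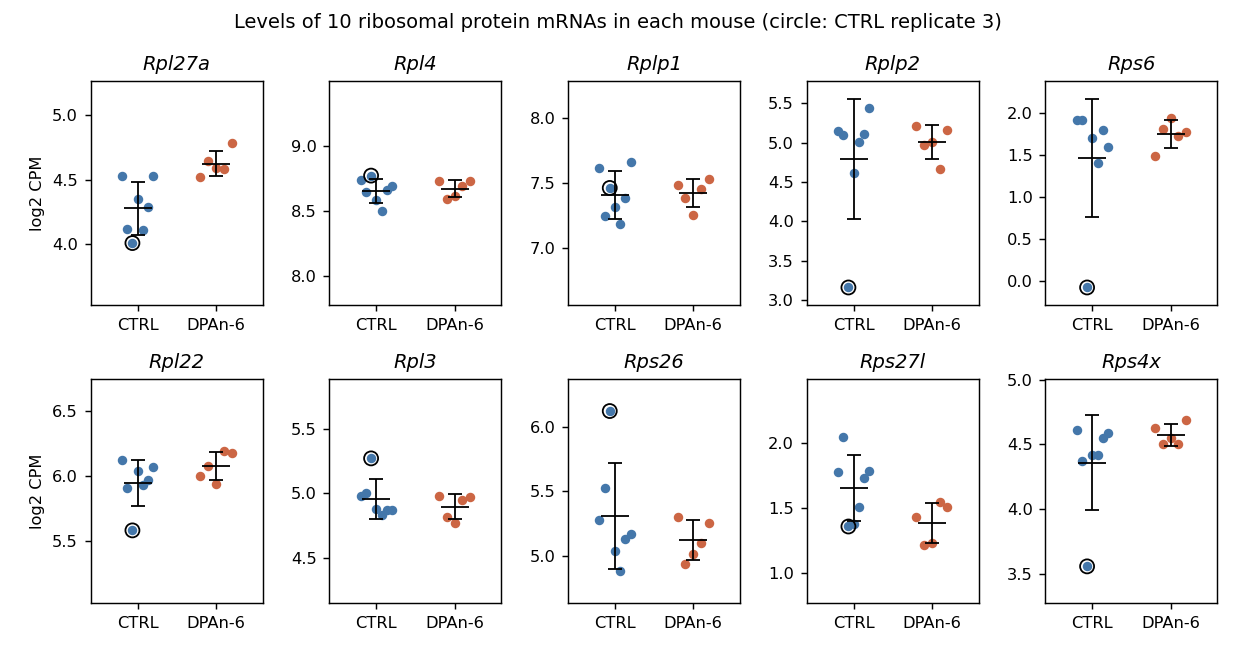
Log2 CPM (vertical axis, with a scale of its own in each panel) of 10 members in each CTRL (blue) and DPAn-6 (orange) mouse, with the mean and SD as bars and CTRL replicate 3 circled. The groups overlap in all 10 panels, and CTRL replicate 3 is far below the other mice for Rplp2, Rps6, Rpl22 and Rps4x, and above them for Rpl3 and Rps26.

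Rps6, the small subunit protein that S6 kinase phosphorylates (chr4:86854660-86857412), had only 14 to 90 counts per mouse, and 84.6% of its windows were shared. It lay at −0.08, 1.70 and 1.92 log2 CPM in CTRL and at 1.48, 1.81, 1.94, 1.73 and 1.77 in DPAn-6 mice. Leaving aside CTRL replicate 3, the 2 groups covered nearly the same range, and the fold change was 0.16 (standard error 0.23) with this mouse and 0.02 without it. Rps4x, the X-linked small subunit protein (chrX:102184941-102189394), lay at 3.56, 4.42 and 4.61 in CTRL and at 4.63, 4.50, 4.55, 4.50 and 4.69 in DPAn-6 mice. The log2 fold change of Rps4x fell from 0.16 (standard error 0.13) to 0.06 when CTRL replicate 3 was left out.

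Several members have a close relative that can stand in the same place of the ribosome. Coding sequences of Rps27 and Rps27l are of equal length (252 bases without the stop codon) and 76.2% identical, and those of Rpl36a and Rpl36al (318 bases) are 87.7% identical. Stretches of 60 coding bases are printed to show how far reads can tell the relatives apart, with the bases at which the 2 relatives differ in capitals, for Rps27 (chr3:90212985-90213044, minus strand), Rps27l (chr9:66947587-66947646, plus strand), Rpl36a (chrX:134586519-134586578, plus strand) and Rpl36al (chr12:69182960-69183019, minus strand).
Rps27: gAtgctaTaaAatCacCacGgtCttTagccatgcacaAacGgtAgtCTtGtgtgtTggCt
Rps27l: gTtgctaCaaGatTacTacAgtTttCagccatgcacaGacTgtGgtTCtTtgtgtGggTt
Rpl36a: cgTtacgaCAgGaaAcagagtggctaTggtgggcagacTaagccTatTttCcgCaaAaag
Rpl36al: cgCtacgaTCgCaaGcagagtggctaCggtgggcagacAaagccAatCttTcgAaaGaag
The first pair differs at 16 of these bases and the second at 12, so neither relative shares the stretch with the other. The stretch of Rps27 occurs in 2 other annotated genes and that of Rps27l in 0, and those of Rpl36a and Rpl36al in 1 each.

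Rps27l, which p53 can induce, lay at 1.36, 1.73 and 2.05 log2 CPM in CTRL and at 1.43, 1.22, 1.23, 1.55 and 1.51 in DPAn-6 mice. DPAn-6 mice lay low, with 2 of them below every CTRL mouse, but the groups overlapped (exact permutation p = 0.0606, edgeR adjusted p = 0.345). Rps27 lay at −0.08, 0.19 and 1.01 in CTRL and at 0.08, −0.03, 0.24, 0.12 and 0.34 in DPAn-6 mice, on 16 to 33 counts in each. Its values overlapped fully, and 98.6% of its windows were shared. Rpl36a had 1.59 ± 0.46 log2 CPM (SD, n = 7) for CTRL and 1.85 ± 0.28 (SD, n = 5) for DPAn-6, and Rpl36al had 1.81 ± 0.38 and 1.87 ± 0.16, with log2 fold changes of 0.19 (standard error 0.21) and 0.00 (standard error 0.16).

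Rpl22 and Rpl22l1 are another pair of relatives, in which Rpl22 can restrain the mRNA of Rpl22l1. Rpl22 (chr4:152325742-152334071) lay at 5.58, 5.97 and 6.12 log2 CPM in CTRL and, by the same 3 measures, at 5.94, 6.08 and 6.19 in DPAn-6 mice. Rpl22l1 (chr3:28805436-28807424) lay at 1.93, 2.82 and 3.27 in CTRL and at 2.72, 3.01, 2.89, 3.24 and 3.06 in DPAn-6 mice. CTRL replicate 3 was lowest for both, and the fold changes of 0.11 (standard error 0.08) and 0.16 (standard error 0.18) became 0.06 and 0.06 without it. Per kilobase, Rpl22 had a mean of 7.08 and Rpl22l1 of 3.77 log2 CPM per kb over all mice. Rpl39, which sits in the exit tunnel, had 2.24 ± 0.32 log2 CPM (SD, n = 7) for CTRL and 2.27 ± 0.12 (SD, n = 5) for DPAn-6, while its relative Rpl39l had too few counts to be tested.

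Because ribosomal protein mRNAs are short, they were set beside other mRNAs by length. Among protein-coding genes that are not members, the median log2 fold change was 0.03 up to 750 bases, 0.04 from 750 to 1000, 0.05 from 1000 to 1500, 0.03 from 2000 to 3000, −0.05 from 5000 to 8000 and −0.14 above 8000 bases. The members had medians of −0.02 (23 genes), 0.07 (21 genes) and 0.03 (20 genes) in the 3 shortest of these classes, inside the quartiles of the other genes in the same class. In the longer classes the members had medians of 0.05 from 1500 to 2000 bases (6 genes, others 0.04) and 0.13 from 2000 to 3000 (5 genes), from 3000 to 5000 (1 gene) and from 5000 to 8000 (1 gene). The last 3 medians lay above the upper quartiles of the other genes in those classes (0.11, 0.09 and 0.04). All classes use the longest transcript of a gene, and most members in these 3 classes have a shorter principal transcript. It has 640 bases for Rps15a, 679 for Rpl18, 680 for Rpl9, 474 for Rpl22 and 1310 for Rpl7l1. Only for Rpl5 (2045 bases) and Rps20 (3706 bases) is the principal transcript the longest one. Across the 77 tested members, which share the same 12 libraries, Spearman's rho between fold change and the length of the longest transcript was 0.29. Above 8000 bases, where no member lies, 32 of 863 genes were called lower and 0 higher, against 1.14% and 0.408% of all genes tested. Once the trend of every library on length and GC content was taken out, the median was 0.05 for the members and 0.03 for the other short genes.

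**Figure D4:**
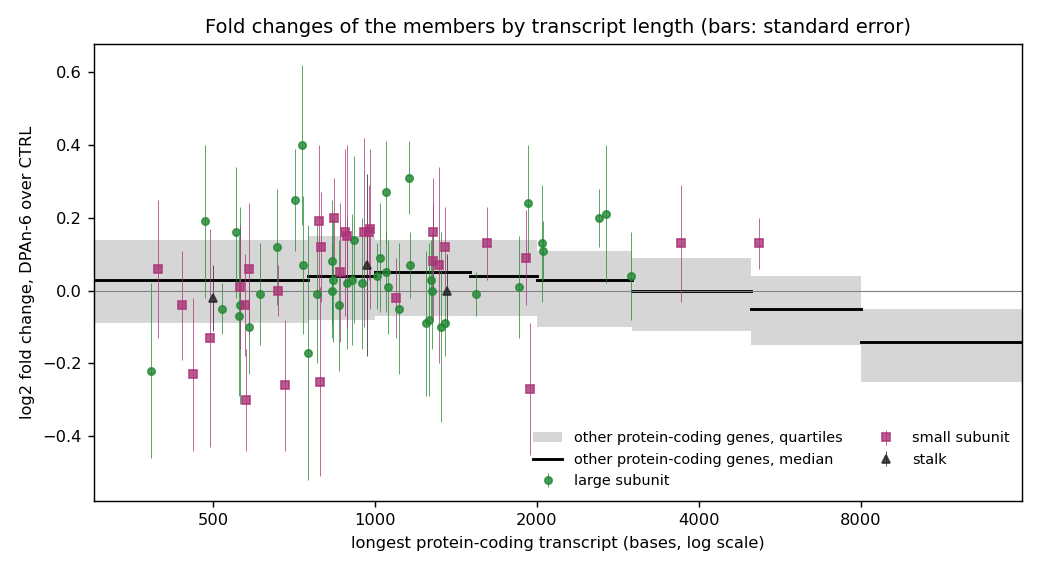
Log2 fold change of DPAn-6 over CTRL (vertical axis, bars are standard errors) of the 77 tested members against the length of the longest protein-coding transcript in bases (horizontal axis, log scale), by subunit. Black lines and grey bands are the median and quartiles of other protein-coding genes in 8 length classes, which fall from 0.03 in the shortest class to −0.14 in the longest.

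The genes that work with the ribosome were set beside the members. Of 44 translation factors, 49 genes of ribosome assembly and ribosomal RNA synthesis and 17 other mRNAs with a TOP motif, 0 were called higher and 0 lower, with 7, 5 and 0 at an unadjusted p below 0.05 in edgeR and medians of 0.08, 0.07 and 0.07. Most genes of the TOP list, among them Eef1a1, Eef2 and Pabpc1, are also translation factors, so these lists are not separate and a gene can count in both. Over all genes tested, 0.408% were called higher, 1.14% were called lower and 14.5% had an unadjusted p below 0.05. Without CTRL replicate 3, 1 translation factor was called higher and 1 lower, 4 ribosome assembly genes were called higher and 1 other TOP mRNA was called higher, with 17, 13 and 3 at an unadjusted p below 0.05. In that fit 2.12% of all genes were called higher and 3.98% lower. Of 15599 genes tested both with and without that mouse, 3609 then had an unadjusted p below 0.05. Rack1, a small subunit protein outside the name rule, averaged 7.01 ± 0.48 log2 CPM (SD, n = 7) for CTRL and 7.24 ± 0.09 (SD, n = 5) for DPAn-6, and again its lowest value was that of CTRL replicate 3 (5.97). Eef1a1, the main TOP elongation factor, had 8.89 ± 0.11 (SD, n = 7) and 8.99 ± 0.07 (SD, n = 5). Of 19 tested genes of mTORC1 and S6 kinase, 1 was called, Rheb, the small GTPase that switches mTORC1 on. It had 6.18 ± 0.12 log2 CPM (SD, n = 7) for CTRL and 6.49 ± 0.05 (SD, n = 5) for DPAn-6, where all 5 mice lay above every CTRL mouse (two-sided exact permutation p = 0.00126, the lowest possible with 7 and 5 mice), with a log2 fold change of 0.28 (standard error 0.07, edgeR adjusted p = 0.0466). This call was lost when CTRL replicate 1, 2, 5, 6 or 7 or any single DPAn-6 mouse was left out (adjusted p between 0.0677 and 0.154), while the fold change stayed between 0.25 and 0.31. It was also lost with age as covariate (0.0769), with no filter on low counts (0.0837), with the replicate number as a block (0.198) and in 14-month mice only (0.46), at fold changes of 0.28 to 0.30, and with Ttr as covariate (0.737) at 0.18. Mtor and Rps6kb1, the S6 kinase gene, had log2 fold changes of −0.06 (standard error 0.07) and −0.13 (standard error 0.15).

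Other complexes built of many small proteins were described the same way. Of 76 tested oxidative phosphorylation genes, 77 mitochondrial ribosome genes and 38 proteasome genes, 0 were called in either direction, with 8, 6 and 6 at an unadjusted p below 0.05 in edgeR, where 14.5% of all genes were. Their medians were 0.09, 0.10 and 0.12, with 56, 68 and 36 genes above 0, against 49 of 77 for the cytosolic ribosomal proteins. Leaving out CTRL replicate 3 gave medians of 0.03, 0.08 and 0.11, with 1 mitochondrial ribosome gene and 1 proteasome gene called higher (2.12% of all genes were), and 35 of 77 members were then above 0. These differences between lists were not tested.

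**Figure D5:**
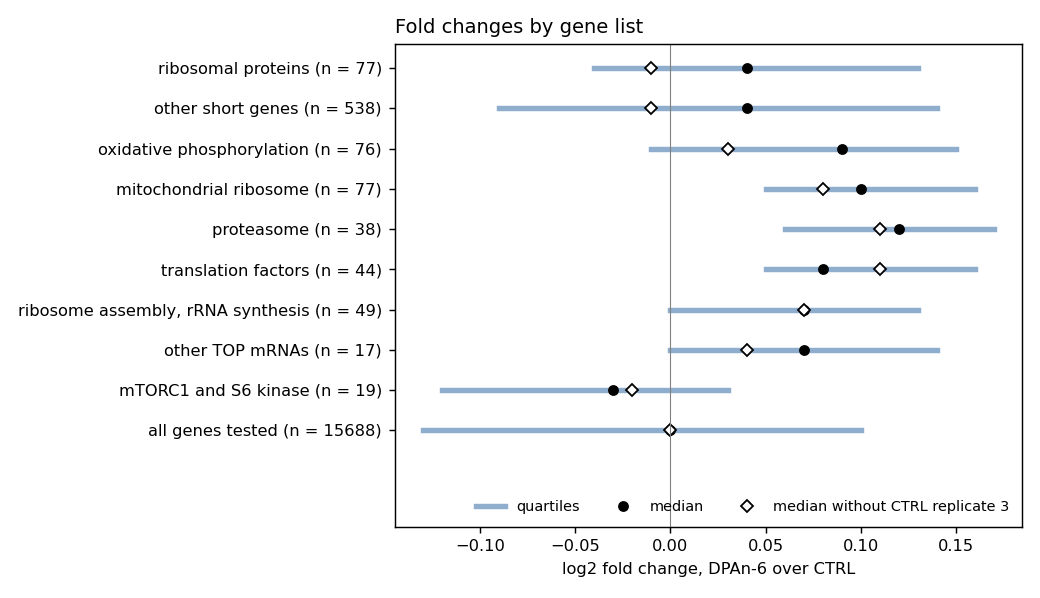
Median (black point) and quartiles (blue bar) of the log2 fold change of DPAn-6 over CTRL (horizontal axis) for the members and 9 other sets of genes (vertical axis, with the number tested), and the median without CTRL replicate 3 (diamond). The median of the members moves from 0.04 to −0.01 without that mouse, as that of other short genes does.

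Cell type markers show what else moved between these libraries. Of 9 microglia markers, 3 were called lower in DPAn-6 (Csf1r, C1qc and C1qb), against 1.14% of all genes tested. The summed level of the 9 markers ranged from 10.18 to 10.77 log2 CPM in CTRL and from 9.64 to 10.20 in DPAn-6 mice. None of the markers of neurons (6 genes), oligodendrocytes (6), astrocytes (5), endothelium (5) or red cells (5) was called by edgeR, with 1, 4, 1, 1 and 0 of them at an unadjusted p below 0.05, where 14.5% of all genes were. When CTRL replicate 3 was left out, 6 microglia markers, 1 astrocyte marker and 2 choroid plexus markers were called lower and 1 neuron and 1 oligodendrocyte marker higher. In that fit 3.98% of all genes were called lower and 2.12% higher. Neuron markers ranged from 12.54 to 13.01 in CTRL and from 12.74 to 12.89 in DPAn-6 mice, so neuron mRNAs were present in every library. These markers were not chosen to tell cortex from other brain regions. CTRL replicate 3, the mouse with the lowest members, had the highest neuron sum (13.01) and the highest astrocyte sum (13.19, with 12.24 to 12.73 in the other mice), and the part of these cells in its member values was not tested. Choroid plexus markers (4 tested, 0 called and 4 at an unadjusted p below 0.05) ranged from 3.67 to 10.70 in CTRL and from 2.91 to 4.52 in DPAn-6 mice, and were highest in CTRL replicates 2, 5 and 3, whose member medians were 0.02, −0.09 and −0.60. With Ttr, a choroid plexus gene, as covariate, 0 members were called, in a table where 17 of all genes (0.108%) were called, and their median fold change was −0.05. Among CTRL mice only replicate 7 (3.67) had a choroid plexus sum inside the DPAn-6 range. Choroid plexus level and group thus went largely together, and the fit with Ttr cannot tell them apart. The part of cell composition in the members' levels was not tested.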

How the data were processed

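Poly(A)-selected KAPA mRNA libraries of the cortex of 12 mice, 1 per mouse, were aligned by the authors with STAR (2.5.3a per the labels) to GRCm38 with Ensembl annotation, and the authors deposited raw gene counts from GeneCounts with no normalization, for 50563 genes. The strand setting is not given in the sources used here. The 22 members with a gene on the opposite strand (among them Rpl3, Rpl5, Rpl15, Rpl22l1, Rpl31 and Rps27a) may share reads with it. Mitochondrially encoded genes were not analysed here. Names, positions and transcripts came from GENCODE M21 (50339 identifiers matched), and start regions from RefSeq (GRCm38.p6).

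Log2 CPM was the log2 of the CPM of each deposited count plus 0.5, on the mouse's total (15208803 to 26520251). Groups were compared with edgeR 4.0.16 in R 4.3.3 (TMM, filterByExpr, quasi-likelihood test, no covariate, Benjamini-Hochberg over 15688 genes, threshold 0.05), tested on simulated data. Single genes were compared by two-sided exact permutation tests over 792 splits, whose smallest p is 0.00126. The paper's methods name limma-voom, run here as an alternative (limma 3.58.1), as was DESeq2 1.42.0. The mice are separate animals. Python 3.11.15, numpy 2.4.6, pandas 2.3.3 and scipy 1.17.1 were used.

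Members and lists were chosen with earlier results of these data known. Named were the 5 largest rises and 5 largest falls, the 3 highest and 3 lowest levels per kilobase, members with set roles or relatives, members not tested, and called genes of other lists.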

Additional observations from a re-analysis of the deposited data

Results flagged for a closer look

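A sample was looked at again where its gap to the nearest mouse of its group, as a share of the range of that group, exceeded Dixon's 95% critical value. This was done in 62 checks of the summaries and named members, of which chance gives about 1 in 20. All 8 results came from CTRL replicate 3. The median of the members there was −0.60 and that of the other short genes −0.48, relative to each gene's mean over 12 mice. Among single members this mouse was low for Rpl8 (6.77 log2 CPM), Rpl22 (5.58), Rplp2 (3.16), Rps4x (3.56) and Rps6 (−0.08), and high for Rpl3 (5.27). Members share the library, so these are not separate observations. No DPAn-6 mouse was marked. Without CTRL replicate 3, edgeR called 0 members.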

How the results depend on the processing

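No alternative called a member lower in DPAn-6. Of 24 alternatives, 23 called 0 members higher, and DESeq2 called 1 (Rpl27a). Over the alternatives the median member log2 fold change ranged from −0.05 (Ttr as covariate) to 0.19 (14-month mice only) and that of other short genes from −0.01 to 0.12. With 1 mouse left out at a time, 0 members were called higher and 0 lower, and the medians ranged from −0.01 to 0.09 for members and from −0.01 to 0.07 for other short genes. The replicate numbers did not pair the mice (correlations of same-numbered mice between −0.13 and 0.22). With a replicate block the members' median was 0.14 and that of other short genes 0.10, 0 members were called, and calls over all genes fell from 243 to 79. The length and GC trend removed together with the replicate block gave 0.11 and 0.05. Defining short genes by the principal transcript, an alternative chosen after the data were seen, gave a median of 0.02, as did taking genes in the members' length range. Over all genes DESeq2 called 696, 14-month mice only 9 and the exclusion of CTRL replicate 3 gave 953. Low counts limit 35 members, which had under 100 counts on average, and the part of reads that map to several places was not tested.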
